A study of Mus musculus with 4 samples.

Results

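The immediate early response genes Fos, Fosb, Jun, Junb, Egr1, Egr2, Ier2, Atf3, Dusp1 and Myc were examined for 2 acetylations of histone H3, at lysine 9 (H3K9ac) and at lysine 14 (H3K14ac). They were chosen as inducible genes with CpG-rich promoters and were found by name in GENCODE M1, 10 of its 22367 genes for proteins outside the mitochondrial genome. The study mapped both marks by ChIP-seq in mouse embryonic stem (mES) cells and asked where in the genome they lie. The series holds 4 libraries of untreated cells. Antibody ab4441 was used against H3K9ac, antibodies 13HH3-1A5 (here 13HH3) and 7G8 against H3K14ac, and input DNA is the control. The labels give all 4 libraries the line E14 of strain 129P2/OlaHsd at passage 25-30, whereas the methods describe mES cells derived from blastocysts, kept on feeder cells and then passaged without them. No inducing treatment is named in the labels. The methods give a medium with serum and leukemia inhibiting factor, and whether the genes were induced was not measured here. Each antibody has 1 library and there are no replicates, so the 95% intervals given here in brackets cover counting error only, and no p-value is given.

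After 1 tag per position and strand was kept on chromosomes 1 to 19, X and Y, 23181544 tags remained for H3K9ac, 21626227 for 13HH3, 23837354 for 7G8 and 19313142 for input. Tags were counted within 2 kb of the transcription start site (TSS) of each gene and are given as normalised tags, the number per 10000000 tags of the library. The ratio of a ChIP library over input is given on the log2 scale.

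Immediate early genes are transcribed within minutes of a stimulus such as a growth factor, without the need for new protein synthesis. Signals through MAP kinases and cAMP reach factors already bound at their promoters, among them serum response factor with its ETS partners at CArG boxes and CREB at cAMP response elements (CRE). Histone acetylation at these genes, and its rapid turnover, is a long-studied feature of their induction. Most of the products are transcription factors. Fos, Fosb, Jun and Junb encode subunits of the AP-1 dimer, Atf3 encodes a bZIP factor of the stress response, Egr1 and Egr2 encode zinc finger factors, and Myc encodes a bHLH factor that drives growth. Dusp1 encodes a phosphatase that switches MAP kinases off, and Ier2 a nuclear protein of the early response.

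The cell type given by the labels was checked at fixed marker genes. H3K9ac peaks, which 65.1% of all TSSs had, lay at the TSS of 8 of 8 ES cell markers, with a median log2 ratio over input of 2.73 (1 added to each density). They lay at 3 of 6 fibroblast markers, which would show feeder cells, with a median of 0.59 and a range from -0.30 to 0.98. At 4 markers of other tissues there was no H3K9ac peak, and the median was -0.43. The lists also differed in CpG islands, which held the TSS of 6 of 8 ES cell markers, 3 of 6 fibroblast markers and 0 of 4 others. Of all CpG island TSSs 92.3% had an H3K9ac peak, so cell type and CpG islands cannot be told apart in this check. The part of feeder cells in the values below was not tested.

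Since the genes were chosen for CpG-rich promoters, their CpG content is a description. All 10 TSSs lay in a CpG island, as did 59.0% of all protein-coding TSSs. The 2 kb around the TSS held a median of 123.5 CpG dinucleotides over the 10 genes, against 61 over all TSSs and 91 over TSSs in CpG islands. Jun had the most with 165 and Fos the fewest with 107.

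Promoter sequence upstream of the start site is shown for the 7 genes that the RefSeq promoter table holds, since this is the DNA whose chromatin was measured. The table is of build GRCm38.p6, and each sequence was placed by an exact match on NCBIM37 (mm9), the build of the tags, whose coordinates are given. Each line covers up to 250 bases, 5′ to 3′ on the strand of the gene, and ends at the RefSeq start or, for Atf3 and Dusp1, at the GENCODE start upstream of it. Capitals mark CArG boxes, CREs with the letters TGACGTCA, CRE cores with the letters TGACGT, and EGR sites with the letters GCGNGGGCG.
Fos (chr12:86814590-86814839, forward strand): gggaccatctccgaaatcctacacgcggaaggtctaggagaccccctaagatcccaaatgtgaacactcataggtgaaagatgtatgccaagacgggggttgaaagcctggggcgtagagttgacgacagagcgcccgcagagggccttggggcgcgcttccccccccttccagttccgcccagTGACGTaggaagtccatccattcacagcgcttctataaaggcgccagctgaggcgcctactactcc
Fosb (chr7:19895395-19895644, reverse strand): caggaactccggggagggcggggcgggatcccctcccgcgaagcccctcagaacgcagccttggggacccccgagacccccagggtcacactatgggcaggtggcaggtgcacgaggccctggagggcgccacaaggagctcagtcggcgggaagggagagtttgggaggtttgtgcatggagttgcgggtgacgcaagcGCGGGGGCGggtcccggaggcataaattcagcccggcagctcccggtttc
Jun (chr4:94718914-94719163, reverse strand): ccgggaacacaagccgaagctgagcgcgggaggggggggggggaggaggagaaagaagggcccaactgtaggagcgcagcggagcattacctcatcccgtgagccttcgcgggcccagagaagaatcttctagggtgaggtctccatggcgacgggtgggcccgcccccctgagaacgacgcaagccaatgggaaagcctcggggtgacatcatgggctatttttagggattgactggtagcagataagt
Junb (chr8:87502648-87502897, reverse strand): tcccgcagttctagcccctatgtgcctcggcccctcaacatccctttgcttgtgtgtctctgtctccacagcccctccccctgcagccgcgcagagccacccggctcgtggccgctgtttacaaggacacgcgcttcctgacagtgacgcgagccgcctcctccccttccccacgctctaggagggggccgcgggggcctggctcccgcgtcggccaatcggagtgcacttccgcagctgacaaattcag
Egr2 (chr10:67000367-67000616, forward strand): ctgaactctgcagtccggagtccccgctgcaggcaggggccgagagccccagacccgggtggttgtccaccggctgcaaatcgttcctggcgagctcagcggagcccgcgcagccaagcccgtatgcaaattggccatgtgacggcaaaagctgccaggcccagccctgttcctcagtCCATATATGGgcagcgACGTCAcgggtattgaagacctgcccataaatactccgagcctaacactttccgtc
Atf3 (chr1:193007220-193007462, reverse strand): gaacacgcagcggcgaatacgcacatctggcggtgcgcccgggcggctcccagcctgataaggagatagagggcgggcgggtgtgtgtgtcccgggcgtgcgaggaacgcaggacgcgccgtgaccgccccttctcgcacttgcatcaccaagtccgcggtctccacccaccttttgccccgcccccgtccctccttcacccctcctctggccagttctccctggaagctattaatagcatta
Dusp1 (chr17:26645465-26645667, reverse strand): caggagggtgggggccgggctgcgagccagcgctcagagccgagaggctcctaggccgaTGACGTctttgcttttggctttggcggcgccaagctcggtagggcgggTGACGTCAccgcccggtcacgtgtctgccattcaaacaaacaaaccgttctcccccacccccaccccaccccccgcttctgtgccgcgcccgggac

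Across these 7 windows of 250 bases, CRE cores on either strand were found at Fos, Egr2, Atf3 and Dusp1, 4 of 7 genes, against 6.47% of the 32851 promoter windows of the table. The core at Atf3 lies from -8 to -3 relative to its RefSeq start and runs past the end of the printed stretch. The letters of the core were added to the search after the sequences had been seen. The full CRE, which contains the core on both strands, occurred at Dusp1 only (1.55% of all promoters), the CArG box at Egr2 only (1.47%) and the EGR site at Fosb only (4.70%). The AP-1 letters TGANTCA were in none of the 7 (6.75%). Outside the capitals, the GC box GGGCGG was found at 5 of 7 genes (32.7% of promoters), CCAAT at 3 (33.8%) and the TATA box TATAAA at Fos only (12.4%). The EGR site of Fosb shares bases with a GC box. These matches describe letters in a window and show no binding. Promoter sequence beyond the 250 bases was not searched, so a motif not found is missing from the window only. Egr1, Ier2 and Myc had no entry in the table.

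H3K9ac lay above input at the TSS of all 10 genes, as at 63.8% of all TSSs, and H3K14ac with 13HH3 at 8 of them, as at 32.5% of all TSSs. Within 2 kb of the TSS, Ier2 had the highest ratio over input in both marks and Myc the lowest, with intervals at Myc that overlapped those of other genes. Within 1 kb Fos and Ier2 could not be ranked in H3K14ac, and Atf3 had the lowest 7G8 log2 ratio (0.23). With the 5′ end of the gene record as TSS, Egr2 lay below Myc in H3K9ac (0.93 against 1.70) and in 7G8 (-0.36 against 0.25). The densities of each gene follow, by the role of its product, and are drawn in the plot of densities by gene.

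Fos (ENSMUSG00000021250.7; chromosome 12, 86814840 to 86818223, forward strand) had 101 H3K9ac normalised tags within 2 kb of its TSS (88.8 to 115), 48.6 with 13HH3 (39.7 to 58.8), 35.7 with 7G8 (28.5 to 44.1) and 13.5 in input (8.79 to 19.7). Every ChIP interval lay above that of input, and the interval of H3K9ac above both of H3K14ac. The ratio over input was 7.53-fold for H3K9ac, 3.61-fold for 13HH3 and 2.65-fold for 7G8. In the narrower window of 1 kb either side, the log2 ratio was 3.82 in place of 2.91 for H3K9ac and 2.95 in place of 1.85 for 13HH3.

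Fosb (ENSMUSG00000003545.2; chromosome 7, 19888070 to 19895394, reverse strand) differed from Fos in 13HH3. It had 77.2 H3K9ac normalised tags (66.3 to 89.4), 16.6 with 13HH3 (11.7 to 23.0), 31.0 with 7G8 (24.4 to 39.0) and 13.5 in input (8.79 to 19.7). The 13HH3 interval overlapped that of input, whereas the 7G8 interval lay above both. The log2 ratio over input was 2.52 for H3K9ac (1.92 to 3.17), 0.31 for 13HH3 (-0.46 to 1.09) and 1.21 for 7G8 (0.54 to 1.91).

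Jun (ENSMUSG00000052684.3; chromosome 4, 94715725 to 94718913, reverse strand) had the highest 13HH3 density of the 10 genes, with an interval that overlapped those of Ier2, Dusp1 and Junb. The densities were 172 for H3K9ac (156 to 190), 87.9 for 13HH3 (75.8 to 101), 39.9 for 7G8 (32.2 to 48.7) and 21.2 for input (15.2 to 28.8). The value of 13HH3 exceeded that of 7G8 with no overlap of intervals, although both antibodies were raised against H3K14ac. A noncoding gene, BC042782, starts 688 bp inside Jun on the opposite strand, so tags of both genes cannot be told apart here.

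Junb (ENSMUSG00000052837.4; chromosome 8, 87500811 to 87502617, reverse strand) gave 165 normalised tags for H3K9ac (149 to 182), 72.6 for 13HH3 (61.7 to 84.9), 39.9 for 7G8 (32.2 to 48.7) and 22.8 for input (16.6 to 30.6). The order was the same as at Jun, with 7G8 just above input. Its transcript of 1807 bp lies wholly within the 2 kb window.

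Atf3 (ENSMUSG00000026628.8; chromosome 1, 192994175 to 193007219, reverse strand) had 99.2 H3K9ac normalised tags (86.8 to 113), 54.1 with 13HH3 (44.7 to 64.8), 35.2 with 7G8 (28.1 to 43.6) and 26.4 in input (19.7 to 34.7). The intervals of 7G8 and input overlapped. Input was high at Atf3, Dusp1 and Myc, between 26.4 and 27.4 normalised tags, and low at Fos and Fosb with 13.5, so densities and ratios over input rank the genes differently.

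Among the zinc finger factors, Egr1 (ENSMUSG00000038418.6; chromosome 18, forward strand) had 154 H3K9ac normalised tags (138 to 171), 57.3 with 13HH3 (47.7 to 68.4), 44.9 with 7G8 (36.8 to 54.2) and 18.6 in input (13.1 to 25.8). Egr2 (ENSMUSG00000037868.8; chromosome 10, 67000617 to 67004936, forward strand) had 76.4 for H3K9ac (65.5 to 88.5), 58.3 for 13HH3 (48.5 to 69.4), 33.6 for 7G8 (26.6 to 41.8) and 22.8 for input (16.6 to 30.6). Both genes thus had nearly the same 13HH3 density, while H3K9ac at Egr1 was well above that at Egr2. Egr2 was the gene at which the H3K9ac and 13HH3 densities came closest. Its H3K9ac density was the lowest of the 10, with an interval that overlapped those of Fosb, Myc and Atf3.

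Ier2 (ENSMUSG00000053560.4; chromosome 8, 87185230 to 87186751, reverse strand) had the highest H3K9ac, with 284 normalised tags (263 to 306). It had 86.0 with 13HH3 (74.1 to 99.3), 63.3 with 7G8 (53.6 to 74.3) and 16.1 in input (10.9 to 22.8). The H3K9ac interval overlapped that of no other of the 10 genes. Its ratio over input was 17.7-fold for H3K9ac, 5.36-fold for 13HH3 and 3.95-fold for 7G8, in each case the highest of the 10 within 2 kb of the TSS. Within 1 kb Ier2 had the highest H3K9ac value (log2 ratio 4.14), while Fos had 2.95 for 13HH3 and 2.09 for 7G8 where Ier2 had 2.54 and 2.02. The Fos ratios there rest on 5 input tags upstream and 3 downstream, so Fos and Ier2 could not be ranked in H3K14ac.

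Dusp1 (ENSMUSG00000024190.6; chromosome 17, 26642535 to 26645464, reverse strand) had 156 H3K9ac normalised tags (140 to 173), 75.4 with 13HH3 (64.2 to 87.9), 54.1 with 7G8 (45.2 to 64.3) and 26.9 in input (20.1 to 35.3). All 3 ChIP libraries lay above input, and Dusp1 was second to Ier2 in 7G8 density, with an interval that overlapped those of Ier2, Egr1, Jun and Junb.

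Myc (ENSMUSG00000022346.8; chromosome 15, 61816946 to 61821905, forward strand) had 89.3 H3K9ac normalised tags (77.5 to 102), 25.4 with 13HH3 (19.2 to 33.1), 32.7 with 7G8 (25.9 to 40.8) and 27.4 in input (20.6 to 35.9). Only H3K9ac lay above input. Neither antibody against H3K14ac gave a density at Myc that could be told from input at this depth, with log2 ratios of -0.11 (-0.68 to 0.46) and 0.25 (-0.27 to 0.79).

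**Figure D1:**
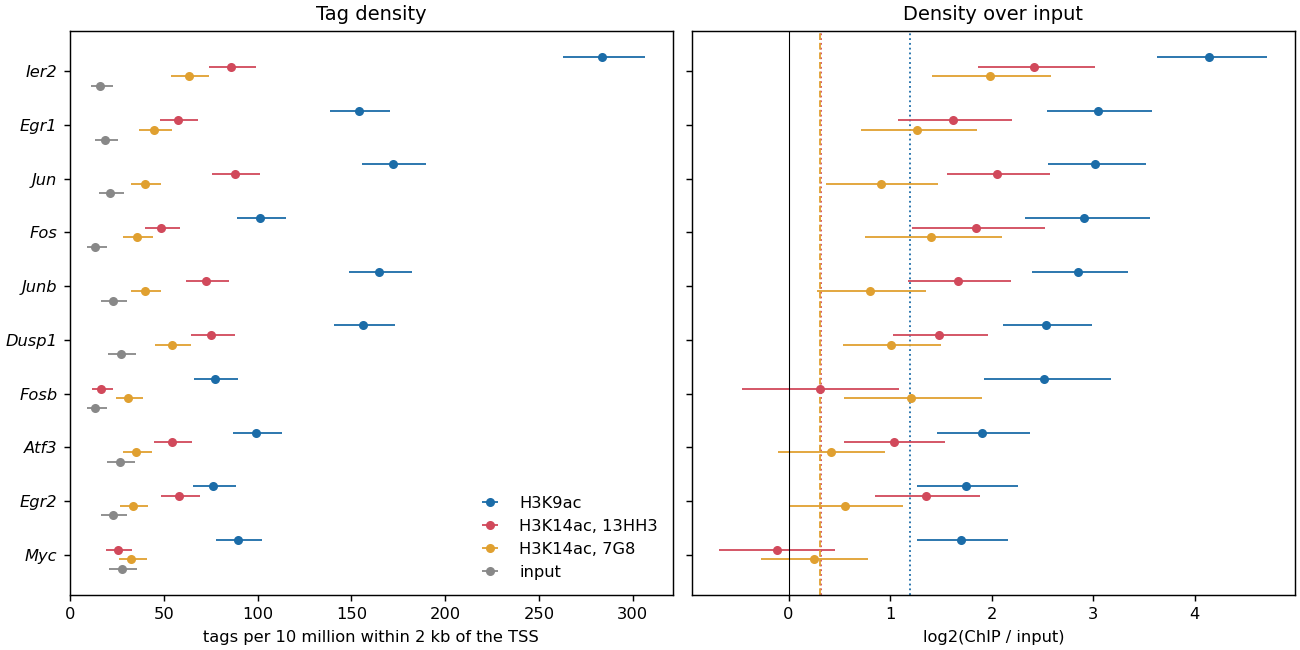
Tag density within 2 kb of the TSS (left, normalised tags tags of the library) and log2 ratio over input (right) of the 10 genes, ordered by the H3K9ac ratio, with points for the values and bars for 95% intervals of counting error. Dotted and dashed lines mark the medians over all 22367 TSSs, which are 1.20 for H3K9ac and nearly equal for 13HH3 (0.32) and 7G8 (0.31). These medians have 1 added to each density, while the points and bars have none added. Fosb and Myc are the genes whose 13HH3 bars reach 0.

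By log2 ratio of H3K9ac over input, the order was Ier2 (4.14), Egr1 (3.05), Jun (3.02), Fos (2.91), Junb (2.85), Dusp1 (2.54), Fosb (2.52), Atf3 (1.91), Egr2 (1.74) and Myc (1.70). Ier2, with an interval from 3.62 to 4.71, stood above all others. The 6 genes from Egr1 to Fosb had overlapping intervals, and so did Atf3, Egr2 and Myc. The intervals of Atf3, Egr2 and Myc also reached those of Fosb and Dusp1, and that of Atf3 reached the interval of Fos. By 13HH3 the order was Ier2 (2.42), Jun (2.05), Fos (1.85), Junb (1.67), Egr1 (1.62), Dusp1 (1.49), Egr2 (1.35), Atf3 (1.03), Fosb (0.31) and Myc (-0.11). Neighbours in this order had overlapping intervals throughout. Over the 10 genes the Spearman correlation of the H3K9ac and 13HH3 ratios was 0.88, a description of 10 genes that share the same input library.

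The 10 genes were then set beside all TSSs. An H3K9ac peak, a run of 400 bp windows with more tags than the local Poisson rate allows at a probability of 1e-05, lay within 2 kb of 10 of 10 TSSs, where 65.1% of all protein-coding TSSs and 92.3% of those in CpG islands had one. A 13HH3 peak lay at 8 of 10 (28.2% of all, 39.3% of CpG island TSSs), the exceptions being Fosb and Myc. A 7G8 peak lay at 7 of 10 (25.1% and 37%), the exceptions being Fos, Egr2 and Myc. Fos lacked a 7G8 peak although its 7G8 ratio of 2.65-fold was the second highest of the 10, so the peak and the summed tags of the window gave different answers there.

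A 2-fold ratio over input (1 added to each density) was reached by 10 of 10 genes for H3K9ac (54.5% of all TSSs), 8 of 10 for 13HH3 (14.5%) and 4 of 10 for 7G8 (14.6%), namely Fos, Fosb, Egr1 and Ier2. The interval lay above input for 10 genes with H3K9ac (63.8%), 8 with 13HH3 (32.5%) and 8 with 7G8 (31.6%). The median log2 ratio over the 10 genes, with 1 added to each density, was 2.65 for H3K9ac against 1.20 for all TSSs and 1.87 for CpG island TSSs. For 13HH3 it was 1.51 against 0.32 and 0.52, and for 7G8 it was 0.93 against 0.31 and 0.52. The median of the genes lay above that of the CpG island TSSs in each library, by most in 13HH3.

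Percentiles of the ratio among all TSSs give the place of single genes. Ier2 was at percentile 99.8 for H3K9ac, 99.7 for 13HH3 and 99.2 for 7G8. Jun was at 93.8, 99.0 and 80.9, and Fos at 91.7, 98.0 and 94.0. Egr2 was at 63.7 for H3K9ac and 93.4 for 13HH3. Its values rested on the choice of TSS, since with the 5′ end of the gene record as TSS, at -2394 bp, the 13HH3 log2 ratio was 0.38 in place of 1.35, without a 13HH3 peak, and that of H3K9ac was 0.93 in place of 1.74. Fosb went the opposite way with 83.9 for H3K9ac and 48.1 for 13HH3, and Myc was at 62.6, 23.3 and 45.6. Among CpG island TSSs only, the percentiles were lower. The median percentile of the 10 genes there was 80.9 for H3K9ac, 93.7 for 13HH3 and 74.8 for 7G8. Among all TSSs it was 88.3, 95.9 and 82.8. The lowest for H3K9ac among CpG island TSSs were Myc (41.2), Egr2 (42.8) and Atf3 (49.9), all below the middle.

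**Figure D2:**
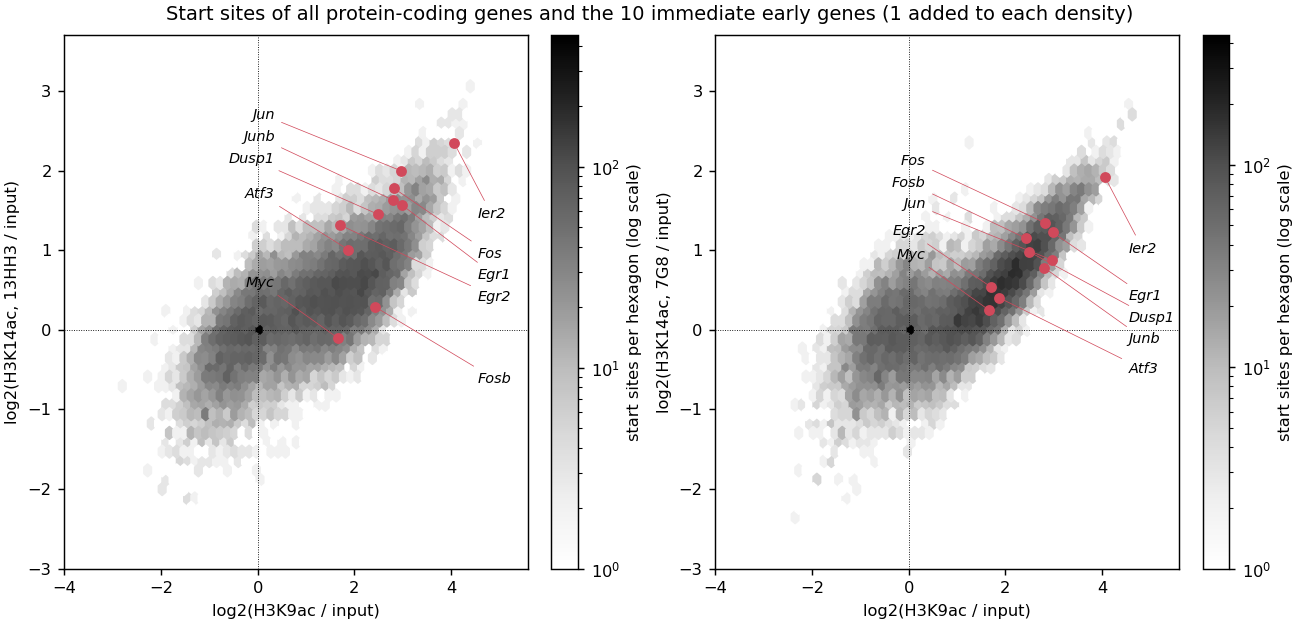
Log2 ratio over input of H3K14ac with 13HH3 (left) and with 7G8 (right) against that of H3K9ac within 2 kb of the TSS, with 1 added to each density, for all protein-coding TSSs (grey hexagons, darker for more TSSs) and the 10 immediate early genes (points). Ier2 is farthest to the upper right in both panels, and with 13HH3 Fosb and Myc lie lowest of the 10.

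The balance of both marks was taken as the log2 ratio of 13HH3 to H3K9ac tags. Input was not taken out of it, and 22.0% of H3K9ac tags but 12.2% of 13HH3 tags lay in peaks of any ChIP library. With 1 library an antibody, a ratio below 0 does not compare the amounts of the marks. The interval lay below 0 at 10 of 10 genes, as at 60.3% of all TSSs and 89.6% of TSSs with an H3K9ac peak. The median over the 10 genes was -1.11, between -0.85 for all TSSs and -1.31 for TSSs with an H3K9ac peak. The highest value was that of Egr2, -0.39 (-0.73 to -0.05), at percentile 91.0 of the TSSs with an H3K9ac peak. Atf3 (-0.87), Jun (-0.97), Dusp1 (-1.05) and Fos (-1.06) followed, at percentiles from 64.8 to 73.6. The lowest was Fosb with -2.21 (-2.77 to -1.69), at percentile 6.24, and then came Myc with -1.81 (-2.27 to -1.38) at 22.3. The intervals of Egr2 and Fosb did not overlap, at like CpG content and like H3K9ac density (76.4 and 77.2 normalised tags). Input differed, with 22.8 normalised tags at Egr2 and 13.5 at Fosb. Over input, H3K9ac was thus not alike in value, at a log2 ratio of 1.74 for Egr2 and 2.52 for Fosb, with overlapping intervals. With 7G8 in place of 13HH3 the same genes lay close together, at -1.19 for Egr2 and -1.31 for Fosb. The 13HH3 density of Fosb and Myc was not above input, so their low values hold little 13HH3 signal beyond background and cannot be ranked.

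The antibodies against H3K14ac did not rank the genes alike. The interval of 7G8 over 13HH3 lay below 0 at 7 of 10 genes (Fos, Jun, Junb, Egr2, Ier2, Atf3 and Dusp1), against 10.8% of all TSSs and 12.6% of TSSs with an H3K9ac peak. It lay above 0 at 1 gene, Fosb (8.17% of all TSSs). The lowest value was -1.14 at Jun (-1.51 to -0.78), at percentile 0.51 of all TSSs, and the highest 0.90 at Fosb (0.31 to 1.52), at percentile 96.2. The median over the genes was -0.45, against 0.00 over all TSSs. With 1 library an antibody, a difference of antibody cannot be told apart from a difference of library.

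At finer scale the tags of the 10 genes were averaged in bins of 100 bp around the TSS. All 3 ChIP libraries were lowest in the 100 bp upstream of the start, where H3K9ac had 20 tags over the 10 genes, 13HH3 had 5 and 7G8 had 4. Input was lowest there too, with 1 tag. H3K9ac was highest from 200 to 300 bp downstream with 138 tags, beside 100 tags from 200 to 100 bp upstream. The highest bin of 13HH3 tags lay further in, from 500 to 600 bp downstream, with 76 tags against 34 in its highest upstream bins nearer than 1 kb, and input was higher there too, with 16 tags. Over input, 13HH3 was 4.24-fold in that bin (2.45 to 7.79). Its highest ratios within 1 kb were 9.82-fold at -550 bp (3.08 to 50.1), where input had 3 tags, and 6.40-fold at 950 bp (2.71 to 18.4), with overlapping intervals. In the 100 bp upstream of the TSS the ratio rested on 1 input tag, with an interval from 2.67 to 691 for H3K9ac, so the place of the lowest ratio could not be told.

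**Figure D3:**
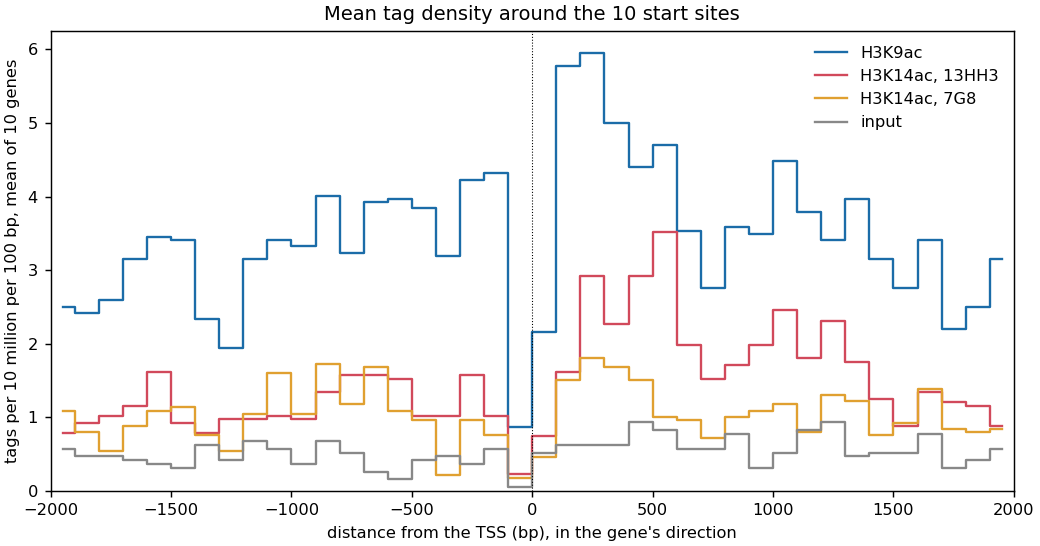
Mean tag density of the 10 genes (normalised tags in each 100 bp bin) against the distance from the TSS in the direction of transcription, for the 3 ChIP libraries and input. All 4 lines dip just upstream of the TSS; H3K9ac is high on both sides, and 13HH3 is highest 500 to 600 bp downstream.

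Tags of input itself were unevenly placed around these starts. Summed over the 10 genes, input had 123 tags in the first 1 kb downstream and 74 in the first 1 kb upstream, 1.66-fold (1.24 to 2.25), beside 1.79-fold for 13HH3 (1.53 to 2.09), 1.20-fold for 7G8 (1.01 to 1.44) and 1.19-fold for H3K9ac (1.08 to 1.30). A greater share of 13HH3 downstream is thus not shown beyond that of input. Between the first 1 kb downstream and the first 1 kb upstream, 13HH3 tags were 57 against 15 at Junb, 53 against 17 at Egr1, 69 against 35 at Ier2, 69 against 39 at Dusp1 and 37 against 20 at Egr2. The interval of the log2 ratio of tags lay above 0 at these 5 genes, with the highest ratio of 1.93 at Junb (1.09 to 2.85), as at 28.6% of all TSSs and 37% of those in CpG islands. At the other 5 genes it held 0, and at Atf3 the sides were even with 34 and 33 tags. For H3K9ac the interval lay above 0 at 3 genes, Junb, Ier2 and Dusp1, with ratios from 0.48 to 0.78 (35.5% of all and 48.5% of CpG island TSSs), and for 7G8 at 1 gene, Egr2, with 1.15 (17% and 20.3%). Input tags downstream and upstream were 14 and 3 at Egr2, 18 and 8 at Dusp1, 22 and 7 at Atf3, 16 and 8 at Myc and 14 and 8 at Jun. At Junb (15 and 12), Egr1 (10 and 7) and Ier2 (7 and 9) input was more even. The part of input in these ratios of tags was not tested at single genes.

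The widest H3K9ac peak at each TSS had a median width of 3000 bp, against 1750 bp over all TSSs with a peak. The widths were 9050 bp at Junb, 7850 bp at Ier2, 4600 bp at Jun and 4500 bp at Egr1, at percentiles from 95.3 to 99.7. The peaks of Ier2 and Jun also hold the start of a noncoding gene, Gm2529 and BC042782. The remaining genes ran from 3100 bp at Atf3 down to 950 bp at Egr2, which was at percentile 17.9. For 13HH3 the median over the 8 genes with a peak was 1550 bp against 650 bp, led by Junb (3100 bp) and Ier2 (2250 bp). For 7G8 it was 750 bp over the 7 genes with a peak, against 650 bp. The 13HH3 peak of Junb ran from -33 to 3066 bp, thus over the whole transcript and past its end, and that of Egr1 from 40 to 1539 bp.

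Over the transcripts, H3K9ac remained above input in the part beyond 2 kb from the TSS at 6 of the 7 genes with at least 1 kb of such sequence, as at 46.7% of the 18031 genes with such a part. The log2 ratios there were 2.71 at Jun (1.48 to 4.22), 1.58 at Fosb (1.11 to 2.07), 1.03 at Myc (0.51 to 1.56), 1.02 at Fos (0.08 to 2.03), 0.90 at Egr2 (83 H3K9ac tags, lower bound 0.33) and 0.84 at Egr1 (0.04 to 1.68). At Myc this part holds an H3K9ac peak, from 2355 to 3004 bp, that lies 324 bp from another annotated start of Myc. The highest H3K9ac bin of Myc starts at 2000 bp (28.5 normalised tags), outside the 2 kb window. Atf3, with 11045 bp beyond 2 kb, was at input in all 3 libraries, with -0.20 for H3K9ac (-0.56 to 0.17). H3K14ac was above input there at Jun alone, with 1.71 for 13HH3 (0.36 to 3.30) and 1.43 for 7G8 (0.06 to 3.04), as at 25% of genes for 13HH3 and 16% for 7G8. Over all genes with such a part the median log2 ratio was 0.24 for H3K9ac and 0.00 for 13HH3. The parts compared were not matched in length or distance. At the 6 genes above input in H3K9ac they ran from 1189 bp (Jun) to 5325 bp (Fosb), and so lay near the TSS.

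In bins of 1 kb out to 20 kb, H3K9ac was above input in 95% of the genes' bins in the 2 kb upstream of the TSS (39.3% of all TSSs' bins) and in 90% of those in the 2 kb downstream (49.6%). It was still above input in 56.7% of the bins from 2 to 5 kb downstream (21.3%) and in 34% from 10 to 20 kb downstream (14.9%). For 13HH3 the share was 60% in the first 2 kb downstream (18.5%) and was 10% from 2 to 5 kb (5.99%) and 6% from 5 to 10 kb (6.52%). Upstream it was 50% within 2 kb (10.3%), 26.7% from 2 to 5 kb (5.28%) and 18% from 5 to 10 kb (5.69%). For 7G8 the share was 40% within 2 kb on either side (13.1% upstream and 14.8% downstream). At CpG island TSSs, H3K9ac was above input in 58.2% of bins in the 2 kb upstream, 73.1% in the 2 kb downstream and 29.8% from 2 to 5 kb downstream. Within 2 kb upstream and downstream their shares were 13.6% and 25.8% for 13HH3, and 18.9% and 21.5% for 7G8. In these counts of bins, 13HH3 beyond 2 kb was above input in more of the upstream than of the downstream bins, a difference that was not tested. The H3K9ac shares rest much on Ier2 and Junb, with 34 and 31 of 40 bins above input, where Jun and Atf3 had 6 each and Myc 7. With 13HH3 more bins than with H3K9ac were above input at Dusp1 (13 against 10) and Jun (9 against 6).

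**Figure D4:**
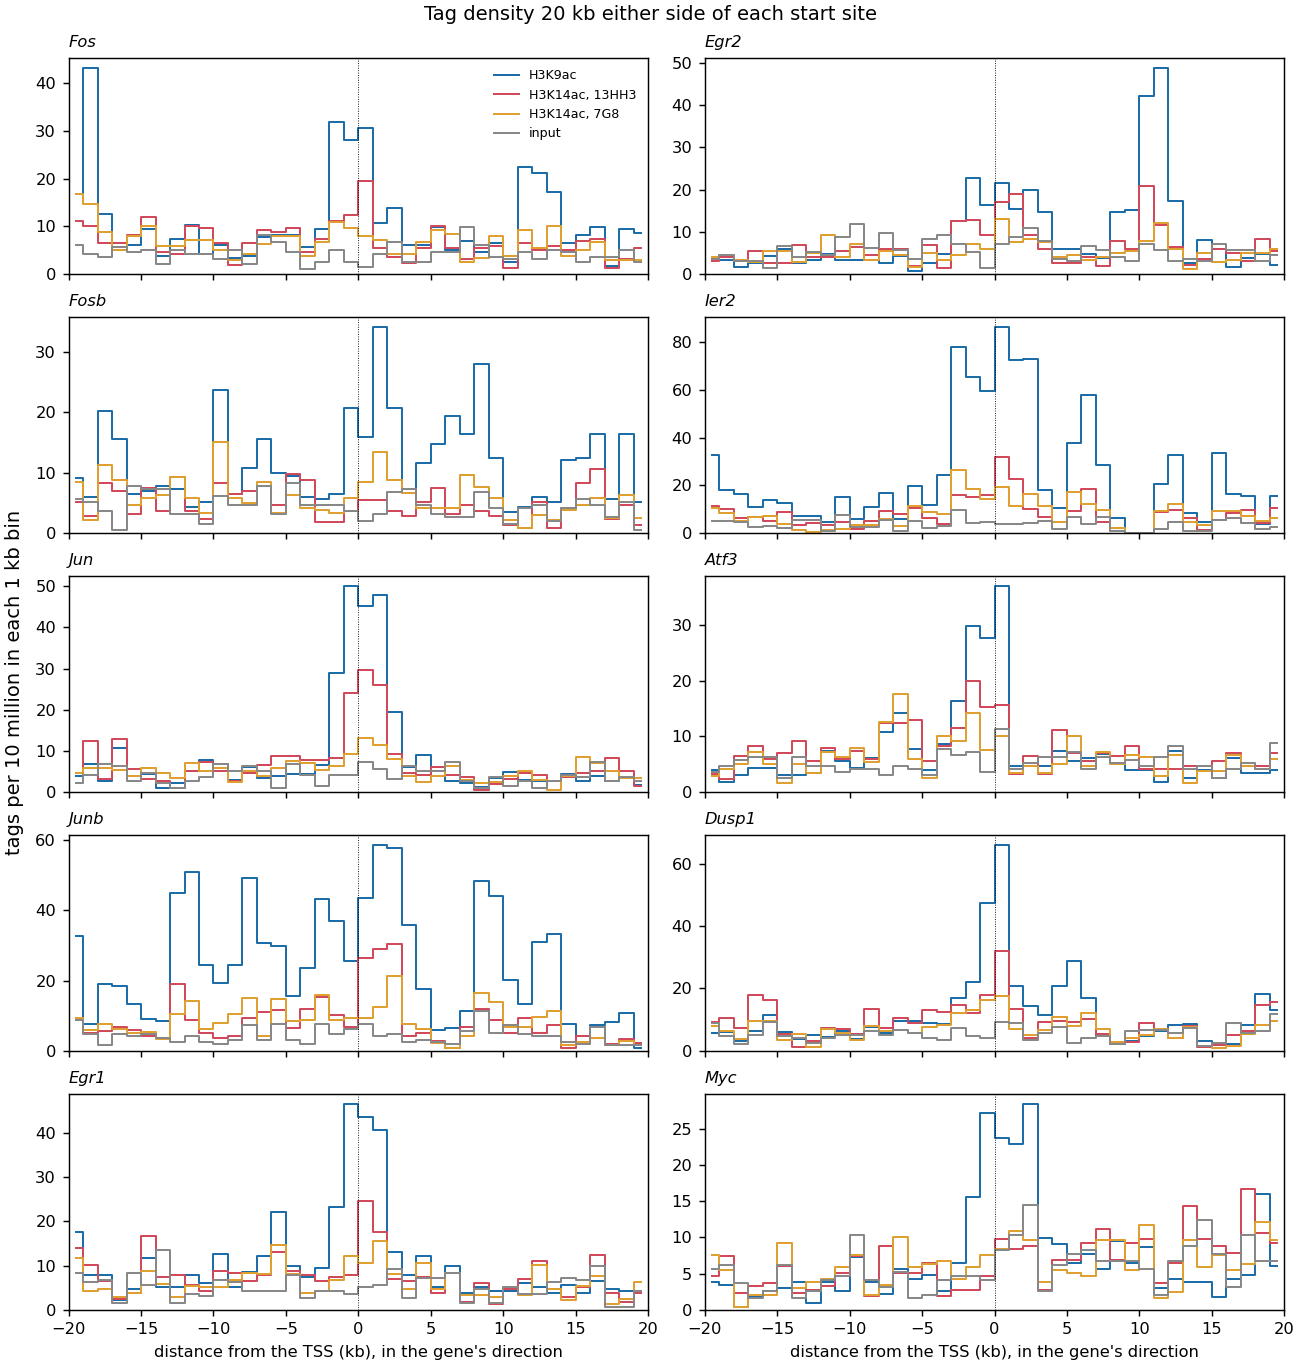
Tag density (normalised tags in each 1 kb bin) within 20 kb of the TSS of each gene, in the direction of transcription, for the 3 ChIP libraries and input, with a vertical axis of its own for each gene. H3K9ac forms 1 block at Jun, a broad stretch at Junb and Ier2, and a separate block upstream at Fos. That block is higher in density than the one at the TSS of Fos, but not in the ratio over input.

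Several genes had H3K9ac away from their own start. At Fos the highest H3K9ac bin of the whole 40 kb was not at the TSS but from -19000 to -18000 bp, with 43.1 normalised tags, in a peak from -19289 to -17640 bp (127 tags, 14 input tags, log2 ratio 2.92, 2.12 to 3.83). The peaks of 13HH3 and 7G8 also lay there, with 23 and 29 tags in their strongest, and no other annotated start is nearer than that of Fos. Over input, the H3K9ac peak at the TSS of Fos had the higher value. It ran from -889 to 1310 bp with 148 tags (log2 ratio 3.62, 2.70 to 4.71), and its interval overlapped that of the upstream peak. A smaller site from -12139 to -11440 bp had peaks of H3K9ac and 13HH3. Downstream of Fos, H3K9ac peaks from 11211 to 13210 bp and from 13511 to 14310 bp had no H3K14ac peak.

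At Atf3 a site about 7 kb upstream had peaks in all 3 libraries, of which that of 7G8 was the widest and held the most tags. The 7G8 peak ran from -7481 to -5982 bp with 66 tags (log2 ratio 2.16, 1.26 to 3.18), and the H3K9ac peak from -7331 to -6782 bp with 26 tags (1.63, 0.39 to 3.08). The 13HH3 library had 2 peaks of 19 tags each within it. At Egr1 a site from -6410 to -5111 bp had 68 H3K9ac tags (2.82, 1.76 to 4.09) and a 7G8 peak, with no 13HH3 peak.

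At Ier2 the H3K9ac peak of the TSS ran from -3799 to 4050 bp and was followed by another from 4501 to 8300 bp (319 tags, 2.81, 2.32 to 3.33), in which both H3K14ac antibodies had peaks. A noncoding gene, Gm2529, starts at -2276 bp from the TSS of Ier2 on the opposite strand. At Dusp1 the site downstream, from 4414 to 6763 bp, had 140 H3K9ac tags (2.47, 1.81 to 3.21) and a 7G8 peak. Upstream of Dusp1 the only peaks beyond the 2 kb window were of 13HH3, 4 in number, the strongest from -17286 to -16087 bp with 50 tags (1.90, 0.97 to 2.94).

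At other genes some of the flanking peaks lay at neighbours and some away from any start. The peaks of Junb reached to Hook2 upstream, where H3K9ac was highest from -13183 to -10084 bp (log2 ratio 3.72), and to Rnaseh2a downstream. The start of Prdx2, at 7262 bp, lay between the H3K9ac peak that ended at 4516 bp and the next, which began at 7917 bp. The H3K9ac peak from -9983 to -5184 bp of Junb ends 1894 bp from the start of Hook2. Within it 13HH3 had a peak from -6133 to -5584 bp, with an interval that reached input (log2 ratio 1.16, -0.09 to 2.55). A 7G8 peak lay there from -5833 to -5384 bp, and both H3K14ac peaks were more than 2 kb from any start. The peak near 11 kb downstream of Egr2 lies at the start of Ado, with 265 H3K9ac tags, more than in any peak at Egr2 itself, whose strongest had 57. Fosb had H3K9ac at Gm17589 and Rtn2, and 2 upstream sites, from -17806 to -16507 bp and from -10256 to -9307 bp, each with a 7G8 peak and none of 13HH3. Jun had a single H3K9ac peak from -2037 to 2562 bp within 20 kb. Myc had 3 H3K9ac peaks between -1445 and 3004 bp and no other, and its single H3K14ac peak, of 13HH3, lay 18755 to 19154 bp downstream.

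**Figure D5:**
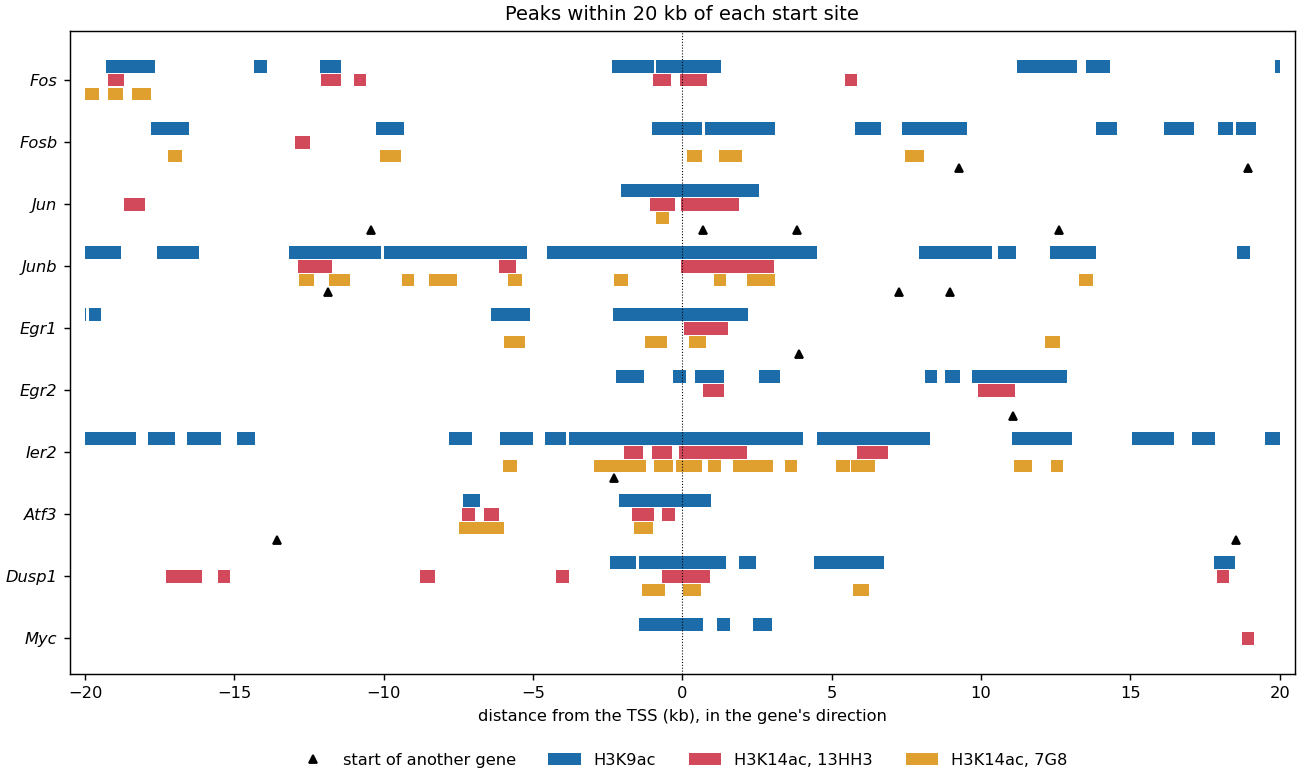
Peaks of the 3 ChIP libraries within 20 kb of the TSS of each gene, in the direction of transcription (horizontal axis, kb), with triangles at the starts of other annotated genes. Sites shared by all 3 libraries away from other starts are seen upstream of Fos and Atf3 and downstream of Ier2. A shared site upstream of Junb lies in an H3K9ac peak that ends 1894 bp from the start of Hook2. Myc has H3K9ac peaks at its start with no H3K14ac peak there.

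For Fos, Atf3 and Ier2, the site away from annotated starts at which all 3 libraries had a peak is shown by the middle 300 bases of the H3K9ac peak, on the strand of the gene and with capitals as above. The shared site upstream of Junb is left out, since its H3K9ac peak lies within 2 kb of the start of Hook2. At Fos these bases lie outside the 13HH3 peak (86795601 to 86796150) and hold only the first part of the strongest 7G8 peak (86796401 to 86797050).
Fos, upstream site (chr12:86796226-86796525, forward strand): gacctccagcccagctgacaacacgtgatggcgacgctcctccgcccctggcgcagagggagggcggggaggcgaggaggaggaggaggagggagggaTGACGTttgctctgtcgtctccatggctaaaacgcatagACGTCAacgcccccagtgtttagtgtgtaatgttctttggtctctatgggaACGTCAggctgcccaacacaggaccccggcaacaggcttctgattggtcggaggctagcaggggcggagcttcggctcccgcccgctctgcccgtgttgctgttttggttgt
Atf3, upstream site (chr1:193014126-193014425, reverse strand): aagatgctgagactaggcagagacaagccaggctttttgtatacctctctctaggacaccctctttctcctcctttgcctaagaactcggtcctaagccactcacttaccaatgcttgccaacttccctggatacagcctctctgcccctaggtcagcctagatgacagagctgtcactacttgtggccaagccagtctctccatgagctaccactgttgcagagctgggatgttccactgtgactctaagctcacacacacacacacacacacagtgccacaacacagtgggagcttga
Ier2, downstream site (chr8:87180201-87180500, reverse strand): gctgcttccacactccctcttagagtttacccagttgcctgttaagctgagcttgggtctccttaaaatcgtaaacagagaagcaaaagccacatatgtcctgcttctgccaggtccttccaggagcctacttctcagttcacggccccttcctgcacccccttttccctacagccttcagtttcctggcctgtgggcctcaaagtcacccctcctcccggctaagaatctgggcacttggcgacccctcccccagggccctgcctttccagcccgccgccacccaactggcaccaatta

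The site upstream of Fos held 20 CpG dinucleotides in 300 bases and 3 CRE cores, whereas the site upstream of Atf3 held 1 CpG and none of the marked motifs, and the site downstream of Ier2 held 6 CpG. A CRE core was present in 3.97% of the middles of all 76908 H3K9ac peaks. The upstream site of Fos thus resembled the promoters above in CpG content, with 15 CpG in 250 bases at Fos itself, and the sites near Atf3 and Ier2 did not.

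The wider pathway was described with lists of genes that the rule did not take. Among 24 other immediate early genes, 23 had an H3K9ac peak, 15 a 13HH3 peak and 9 a 7G8 peak, and 23 lay in a CpG island. Of all CpG island TSSs 92.3%, 39.3% and 37% had these peaks, so the counts of H3K9ac and 7G8 were near that background; the same shares apply to the lists that follow. Their median log2 ratios over input (1 added to each density for medians, none for single genes) were 1.79 for H3K9ac, 0.85 for 13HH3 and 0.52 for 7G8, each lower than that of the 10 genes. The CpG island TSSs had 1.87, 0.52 and 0.52, and all TSSs 1.20, 0.32 and 0.31. Klf6, a zinc finger factor, was highest in H3K9ac with 3.39 (2.75 to 4.10) and in 13HH3 with 2.40 (1.72 to 3.14). Egr4 was lowest with 0.63 for H3K9ac (0.22 to 1.05) and -0.39 for 13HH3 (-0.89 to 0.11). The intervals of Klf6 and Egr4 overlapped those of other genes of the list in both marks.

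Of 18 upstream factors and kinases, which carry the signal to these promoters, 18 had an H3K9ac peak, 12 a 13HH3 peak and 7 a 7G8 peak, and the 7G8 count was near the 37% of CpG island TSSs. The medians were 2.27, 0.83 and 0.78. Crem, a CRE-binding factor, was highest in H3K9ac (3.51, 2.85 to 4.24) and 13HH3 (1.87, 1.15 to 2.66), and Mkl1, a cofactor of serum response factor, lowest in H3K9ac (1.04, 0.53 to 1.57). Each of these intervals overlapped those of other genes of the list. The median ratio of 13HH3 to H3K9ac was -1.57 here and -0.94 over the other immediate early genes, on either side of the -1.11 of the 10 genes.

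Of 5 partners and relatives of Myc, 5 had an H3K9ac peak, 2 a 13HH3 peak and 2 a 7G8 peak, shares near the 39.3% and 37% of CpG island TSSs, with medians of 2.53, 1.09 and 0.59. Max, the dimer partner of Myc, had 2.83 for H3K9ac (2.20 to 3.52) and 1.38 for 13HH3 (0.68 to 2.13), but no peak of 13HH3 or 7G8. Mnt, another partner of Max, had 2.82 for H3K9ac (2.39 to 3.27) and 1.13 for 13HH3 (0.64 to 1.64), so they could not be ranked, and with 1 added to each density Mnt was the higher in H3K9ac. Mycl1 was lowest with 1.04 for H3K9ac (0.63 to 1.46), an interval that overlapped that of another gene of the list. Its 13HH3 ratio of -0.46 (-0.99 to 0.07) was, like that of Myc, not above input.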

How the data were processed

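ChIP DNA and input DNA of mES cells had been sequenced as single reads of 36 bases and aligned by the authors to mm9 with ELAND. The files deposited by the authors hold 1 line per mapped read with its position and strand. These are positions with no normalization, each line was counted as 1 tag, and the constant score deposited with each line was not used. Repeated positions were present only in the deposited 13HH3 tags (738711, 3.30%) and were removed here. Tags were placed 100 bp downstream of their 5′ ends. The TSS was that of the transcript with the longest coding sequence. Enrichment was called in windows of 400 bp against the highest of the genome mean and the scaled input in 1, 5 and 10 kb, after the local rate of MACS, which was not run. Intervals are exact (Poisson for densities, Clopper-Pearson for ratios) at 95%. The peak caller, intervals, TSS choice and motif search were tested on simulated data. The work used matplotlib 3.10.9, pandas 2.3.3, SciPy 1.17.1 and NumPy 2.4.6 under Python 3.11.15. Members, gene lists and measures were chosen with earlier results of these data known. Genes named were the 10 members, the highest and lowest of each list in H3K9ac and the highest in 13HH3, and neighbours within 20 kb at a peak.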

Additional observations from a re-analysis of the deposited data

How the results depend on the processing

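Window, TSS choice and repeated 13HH3 tags were varied for peak counts, medians, percentiles and single-gene ratios. Depth and peak threshold were varied for peak counts only, tag shift for all but peak counts, and scaling for medians, single-gene ratios and the counts between antibodies. A count was taken to stay when it was within 1.5 times the value reported. A single-gene ratio stayed when it was within the exact 95% interval of the value reported, and a median or percentile when it was within the median of the genes' bounds. Intervals of low counts are wide, so the 7G8 ratio of Fos counts as staying at 2.09 within 1 kb against 1.41. Of the counts, medians and percentiles over the 10 genes, 56 alternative values stayed within these limits and 3 moved: at a probability of 1e-10 a 7G8 peak remained at 4 genes (Fosb, Egr1, Ier2 and Dusp1; 5.96% of all TSSs), and the median ratio of H3K14ac to H3K9ac became -1.50 with 7G8 in place of 13HH3 and -1.44 after subtraction of scaled input, where Myc is set by the added 1 since its 13HH3 lay below input. A 13HH3 peak remained at 6 genes at that threshold (8.48% of all TSSs). Of the ratios of single genes, 178 stayed within these intervals, 21 moved and 1 turned: with the 5′ end of the gene record as TSS, at -2394 bp, the 7G8 ratio of Egr2 was -0.36. Within 1 kb of the TSS the log2 ratios of Fos (3.82 for H3K9ac, 2.95 for 13HH3), Junb (2.31 for H3K9ac) and Dusp1 (3.08 for H3K9ac) moved. Scaling by tags outside peaks raised the median of all TSSs by 0.27 for H3K9ac and 0.10 for 13HH3, and that of the 10 genes to 2.92 and 1.62. Alternatives added after seeing the data left 7G8 below 13HH3 at 6 to 8 genes, and 13HH3 below H3K9ac at 10, or at 9 with all deposited 13HH3 tags. No paired analysis was possible because each antibody has 1 library. With 26 to 53 input tags at a gene, the lowest ratio whose interval lay above input was 1.47-fold (7G8 at Egr2).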
